A study of Mus musculus with 21 samples.

Results

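The genes studied were 9 genes of prostaglandin synthesis, breakdown and sensing, *Ptgs1*, *Ptgs2*, *Ptges*, *Ptgds*, *Ptgis*, *Hpgd*, *Ptger2*, *Ptger3* and *Ptger4*. They were chosen by name, with earlier results of these data known, and are 9 of the 32285 genes counted. Their unique molecular identifiers (UMIs, each standing for 1 captured RNA molecule) were read in 100359 single cells of 16 libraries. All 9 had at least 1 UMI in 11 of the 12 host libraries, while 8 had one in primary tumor TME replicate 5. A level is given in CPM, the UMIs of a gene per 1000000 UMIs of a cell type in a library. It is averaged over libraries with at least 20 cells of the type.

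The study asked how the tumor microenvironment (TME) of melanoma (MM) lung metastases differs from that of the primary tumor and of unchallenged lung. Fragments of the MT-ret mouse melanoma were placed under the skin of mT/mG mice aged 8 to 10 weeks, whose cells all carry membrane tdTomato. No Cre was present, so the host stayed red and the graft was colorless. Primary tumors were resected, and lung metastases were collected later. Living tdTomato-positive cells were sorted for the TME libraries and tdTomato-negative cells for the MM libraries. With identical libraries taken once, the labels gave 4 metastasis TME, 4 primary tumor TME, 2 metastasis MM and 2 primary tumor MM libraries. The 4 unchallenged lung libraries came from mice without a graft. No normal skin was sampled, although the primary tumors grew under the skin. In comparisons of primary tumor with lung, tumor and organ site therefore cannot be told apart. Those of primary tumor with metastasis also differ in organ site. Replicates 1 to 3 of the TME are 1 sample per site in the labels, with cells of 3 mice in the primary tumor and 2 in the metastasis, and were taken as 1 library each. CD45-positive leukocytes were depleted from some sorts, but the labels do not say for which libraries. MT-ret was the only melanoma grafted.

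In 2 metastasis TME libraries the content or the label is in doubt. The library labelled replicate 5 held 2086 MM cells among its 5166 barcodes, against 4 to 20 MM cells in each other TME library, and goes in that against its label as host cells. The library labelled replicate 6, of 1036 barcodes with 16 MM cells, was deposited a second time under a metastasis MM name of mouse 21, so that its group and mouse are not certain. Both are the only metastasis libraries with enough fibroblasts, so no metastasis fibroblast value is free of these doubts. For the other types, the calls of metastasis that are lost without either are given beside the result.

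Host libraries held 1777036 to 53506609 UMIs. Median depth was 3050 to 5356 UMIs per cell in all but 3 of the 16 libraries. It was 1203 in primary tumor TME replicate 6, 1605 in unchallenged lung replicate 6 and 1654 in the primary tumor MM library of mouse 13. Of 99260 barcode sequences, 1093 occurred in more than 1 library. Clusters were named by standard markers, which gave 5373 fibroblasts, 6842 endothelial cells, 3584 C1q macrophages, 2690 neutrophils and 50218 MM cells. Respiratory ciliated cells (RCC), alveolar type 2 (AT-2) cells, club cells, alveolar macrophages, monocytes and T, NK and B cells were also found. One cluster of 1883 cells led by *Col2a1* and *Wnt4* stayed unnamed. Fibroblast clusters differed by tissue, with 98.1% of the lung fibroblasts in 1 cluster that held few cells of tumors. Most of the lung fibroblasts, 2182 of 2426, came from the shallow replicate 6. Sub-clusters of 725, 555, 506 and 328 lung cells were led by genes of leukocytes, RCC, alveolar macrophages and AT-2 cells, and in primary tumor replicate 6 a sub-cluster of 1465 cells was led by MM genes. Without these sub-clusters 114 fibroblasts of lung replicate 6 were left. Fibroblast calls that this gains or loses among the members are given beside the result.

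Prostaglandins are short-lived lipid signals. Cyclooxygenases turn arachidonic acid into prostaglandin H2, which terminal synthases convert to prostaglandin E2, prostaglandin D2 or prostacyclin. These leave the cell, bind G protein-coupled receptors on neighboring cells, and are taken up and broken down by 15-hydroxyprostaglandin dehydrogenase. In the lung, endothelium is known for removing prostaglandins from the blood, and in tumors prostaglandin E2 is known for its effects on leukocytes.

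The 2 cyclooxygenase genes stand at the start of the pathway and the degrading enzyme gene at its end, so the bases just before their start sites are shown. The sequences are from RefSeq on GRCm38.p6, 120 bases up to the base before the annotated start and read 5′ to 3′, with GGGCGG or its reverse complement CCGCCC, the core of a GC box, in capitals.
Ptgs1: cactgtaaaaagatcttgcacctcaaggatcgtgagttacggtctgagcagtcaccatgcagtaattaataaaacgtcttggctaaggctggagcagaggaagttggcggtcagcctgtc
Ptgs2: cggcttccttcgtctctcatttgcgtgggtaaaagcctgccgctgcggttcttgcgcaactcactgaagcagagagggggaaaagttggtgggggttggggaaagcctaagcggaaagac
Hpgd: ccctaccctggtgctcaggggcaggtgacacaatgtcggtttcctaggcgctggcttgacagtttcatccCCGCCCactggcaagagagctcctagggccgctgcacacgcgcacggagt
These lie at chr2:36230306-36230425, chr1:150099911-150100030 and chr8:56294432-56294551, all on the plus strand. In the promoter windows of 300 bases (250 before and 50 after the start), GGGCGG in either direction was present for 5 of the 8 members with an entry, *Hpgd*, *Ptger3*, *Ptger4*, *Ptges* and *Ptgs2*, against 35.7% of all 32851 promoters. CCAAT or ATTGG was present for *Ptger2* and *Ptger4*, against 37.4%. CACGTG was present for *Ptgs2*, against 7.15%, and TGACG or CGTCA, which overlaps it there, also for *Ptgs2*, against 20.8%. Both of these lay after the start. TATAAA or TTTATA was present for *Hpgd* and lay after the start, against 13.6%. A match describes the letters only. Among the 8, *Ptgds* and *Ptgs1* held none of the 5 motifs. *Ptgis* has no entry.

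The leading cell type differed between genes, and some genes shared theirs. *Ptgs2* was highest in neutrophils, *Hpgd* and *Ptgs1* in endothelial cells, *Ptgis* and *Ptger3* in fibroblasts, *Ptges* in club cells, *Ptger2* in alveolar macrophages and *Ptger4* in T cells. *Ptgds* was highest in MM cells. These levels are descriptions, since no test was made between cell types.

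**Figure D1:**
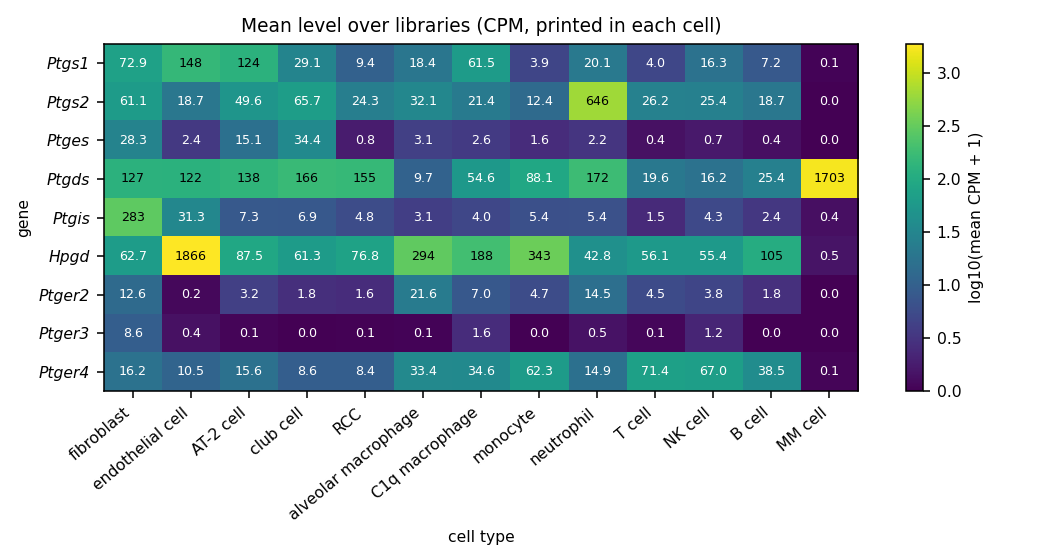
Mean level of the 9 genes (rows) in 13 cell types (columns), in CPM averaged over the libraries with at least 20 cells of the type; color shows log10(mean CPM + 1). The MM column holds the sorted MM libraries and the other columns the host libraries. *Ptgs2* reached 645.8 in neutrophils and *Hpgd* 1866 in endothelial cells, while MM cells were at 0.5 or lower for 8 of the 9 genes.

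*Ptgs1* encodes cyclooxygenase 1, the form known as constitutive (chr2:36230426-36252272). Its level was 148.3 ± 76.8 CPM in endothelial cells (SD, n = 12) and 124.1 ± 64.7 in AT-2 cells (SD, n = 3). It was 72.9 ± 82.3 in fibroblasts (SD, n = 8) and 61.5 ± 26.1 in C1q macrophages (SD, n = 10). The first 3 differed by less than their spread. Monocytes were at 3.9 CPM.

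*Ptgs1* levels in endothelial cells overlapped between the tissues. The metastasis TME libraries had 137.0, 362.4, 61.6 and 92.1 CPM for replicates 1 to 3, 4, 5 and 6. The primary tumor TME libraries had 123.8, 146.3, 133.4 and 122.2. The unchallenged lungs had 97.5, 131.9, 161.8 and 209.2. Metastasis replicate 4 was the highest library. The log2 difference of metastasis TME against lung was 0.15 ± 0.41 (SE; edgeR adjusted p = 0.91), in a comparison that called 3.38% of all genes (327 of 9681). Its sign turned without that replicate, to -0.69 (edgeR adjusted p = 0.148), and in run 3 alone, where it passed at -1.20 (edgeR adjusted p = 0.0132). That of primary tumor TME against lung was -0.07 ± 0.42 (SE; edgeR adjusted p = 0.93).

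The endothelium of the tissues was made up differently. A capillary cluster marked by *Npr3* and *Glp1r* held 63.0% of the lung endothelial cells and 44.6% of those of the metastasis TME. A venous cluster marked by *Selp* and *Vwf* held 98.4% of those of the primary tumor TME, 538 of 547 cells, and 15.8% of those of lung. Aerocytes marked by *Car4* and *Ednrb* were the rest. At resolution 1.0 a cluster with *Ackr1* and *Selp* among its leading genes held 536 primary tumor TME, 631 metastasis TME and 21 lung cells. Another with *Slc6a2* and *Vwf* held 3, 120 and 729. Tissue comparisons within the venous cluster, for all members, may thus set unlike venous cells beside each other, which was not tested. In the venous cluster alone, *Ptgs1* was 266.4, 335.9, 351.0 and 509.8 CPM in the lungs and 133.4, 146.3, 133.4 and 122.2 in the primary tumors, with no overlap. It fell there by 1.39 ± 0.38 on the log2 scale (SE; edgeR adjusted p = 0.0147), in a comparison where 21.9% of all genes were called (1806 of 8245). In the metastasis TME the venous cluster had 339.0, 54.9 and 90.9 CPM, and the log2 difference from lung was -1.43 ± 0.46 (SE; edgeR adjusted p = 0.0608), where 8.79% of genes were called. The capillary cluster had 106.5 to 193.7 CPM in the lungs and 100.6 to 400.7 in the metastasis TME. Aerocytes had 2.7 to 23.9 CPM in all libraries with enough of them.

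Fibroblasts of the metastasis TME had more *Ptgs1* than those of the primary tumor. The 2 metastasis libraries with enough fibroblasts had 131.7 and 255.4 CPM. The 3 primary tumor libraries had 23.1, 36.4 and 17.2, and the 3 lungs 24.1, 54.6 and 40.6. Both metastasis libraries lay above all others. *Ptgs1* rose by 2.88 ± 0.47 log2 units against the primary tumor (SE; edgeR adjusted p = 0.0242), the 1 member called there, in a comparison where 1.1% of all genes were called (122 of 11130). The call was lost when any 1 of these 5 libraries was left out, with adjusted p of 0.0658 to 0.208 and log2 differences of 2.39 to 3.23, and in run 3 alone (edgeR adjusted p = 0.0652). Against lung the log2 difference was 2.21 ± 0.46 (SE; edgeR adjusted p = 0.0586), where 0.863% of genes were called, and it passed without the sub-clusters led by other cell types, at 1.89 (edgeR adjusted p = 0.0376), where 5.62% of genes were called.

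By sub-cluster, the high *Ptgs1* lay in cells that carry mesothelial markers. This sub-cluster, led by *Upk3b*, *Msln* and *Wt1* together with *Cxcl13*, had 205.2 and 340.1 CPM in the metastasis TME and 170.3 in the 1 lung library with enough cells. All 6 mesothelial markers were raised in it, and so were all 7 genes of the study's list for metastasis fibroblasts, which was chosen on these samples. The adventitial, alveolar and mural sub-clusters had 21.4 to 54.6 CPM in metastasis and lung. The 6 mesothelial markers summed to 822.2 to 875.7 CPM in metastasis fibroblasts, 168.7 to 206.4 in lung and 8.10 to 21.0 in primary tumor. Like *Ptgs1* they were highest in metastasis, but they did not overlap between lung and primary tumor, where *Ptgs1* did. Their part in the difference was not tested.

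In C1q macrophages *Ptgs1* was 82.4, 41.7, 116.5 and 75.7 CPM in the metastasis TME, 52.3 and 45.4 in the primary tumor TME and 22.1, 67.4, 48.6 and 62.9 in lung. These groups overlapped. The log2 difference of metastasis TME against primary tumor TME was 0.72 ± 0.33 (SE; edgeR adjusted p = 0.992).

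*Ptgs2* encodes cyclooxygenase 2, the form known as inducible by inflammation (chr1:150100031-150108227). Neutrophils had 645.8 ± 357.1 CPM (SD, n = 9). The next types were club cells at 65.7 ± 76.2 (SD, n = 4) and fibroblasts at 61.1 ± 44.2 (SD, n = 8), which did not differ beyond their spread. MM cells held 2 *Ptgs2* UMIs among 149012189.

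Neutrophils of the metastasis TME were the lowest. They had 513.6, 79.2 and 305.9 CPM of *Ptgs2*. The primary tumor TME libraries had 889.1 and 860.8, and the lungs 401.7, 587.7, 1151.1 and 1023.5. All metastasis libraries lay below both primary tumor libraries and overlapped with the lowest lung, that of mouse 5. Against lung the log2 difference was -1.27 ± 0.44 (SE; edgeR adjusted p = 0.0923) in a comparison that called 7.53% of genes. With the replicate number as a block it was -1.88 (edgeR adjusted p = 0.0107), and without metastasis replicates 1 to 3 it was -1.80 (edgeR adjusted p = 0.0286). It also passed with DESeq2, with no filter on low counts and in run 3 alone, where the difference reached -2.29. The block and run 3 fits draw nothing from the lung of mouse 5, the lung that overlapped. That library has no partner in its block and is of run 1, so these refits are not independent of each other. The fits in run 3 alone and without metastasis replicates 1 to 3 hold only metastasis replicates 5 and 6, the libraries whose content or label is in doubt. Against the primary tumor the log2 difference was -1.53 ± 0.51 (SE; edgeR adjusted p = 0.513), where 0.0433% of genes were called. These are the 2 chemokine genes *Ccl8* and *Cxcl3*, named here after their values were seen.

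**Figure D2:**
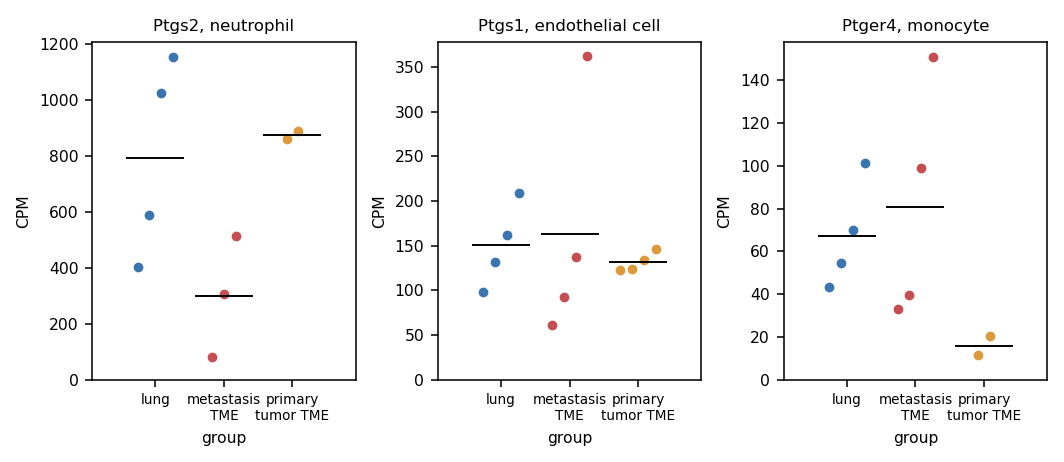
Level in CPM (vertical axis, from 0) of *Ptgs2* in neutrophils, *Ptgs1* in endothelial cells and *Ptger4* in monocytes, by group; each point is 1 library and the black bar the group mean. *Ptgs2* was 79.2 to 513.6 in the metastasis TME and 860.8 to 889.1 in the primary tumor TME, while *Ptgs1* overlapped between groups and *Ptger4* was lowest in the 2 primary tumor libraries, at 11.4 and 20.2.

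Outside neutrophils *Ptgs2* depended on the library. In unchallenged lung replicate 6, which had the most cells of the host libraries and few UMIs per cell, all 11 other host types had 40.2 to 117.7 CPM, T cells and NK cells included. In lung replicate 4 these other types had 0 to 5.9. All 6 neutrophil markers were raised in an RCC cluster with 7405 lung cells and an alveolar macrophage cluster with 6169. Within fibroblasts they were raised in the sub-clusters of 725, 506 and 328 lung cells. In the T cell and NK cell clusters fewer than 3 of them were raised. The part of neutrophil RNA in these *Ptgs2* levels was not tested. Fibroblasts had 0, 87.3 and 115.7 in the lungs, 53.3, 40.5 and 118.1 in the primary tumors and 10.5 and 63.0 in the metastasis TME, with overlap throughout. Of the fibroblast sub-clusters, the one with *Vegfa* markers had 141.9, 106.6 and 207.0 CPM in the primary tumors, in each above the level of all fibroblasts of that library. In venous endothelium *Ptgs2* was 50.9, 52.8, 155.4 and 148.7 CPM in lung and 59.8, 8.9, 0 and 6.8 in primary tumor. There it fell by 3.17 ± 0.89 log2 units against lung (SE; edgeR adjusted p = 0.0162), with 1 primary tumor library inside the lung range.

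*Ptges* encodes microsomal prostaglandin E synthase 1 (chr2:30889471-30929863), which acts after the cyclooxygenases to make prostaglandin E2. Club cells had 34.4 ± 39.4 CPM (SD, n = 4) and fibroblasts 28.3 ± 11.9 (SD, n = 8), which did not differ beyond their spread. AT-2 cells had 15.1 ± 9.6 (SD, n = 3), and all other types 3.1 or less. Club cells of metastasis replicate 6 were at 92.9 CPM, the other 3 libraries at 10.7 to 23.0. Fibroblasts had 43.7 and 21.0 CPM in the metastasis TME, 18.7, 22.9 and 22.0 in primary tumor and 45.2, 37.7 and 15.5 in lung. These overlapped, and no comparison of all fibroblasts called the gene. Without the sub-clusters led by other cell types it fell by 1.07 ± 0.34 log2 units in primary tumor against lung (SE; edgeR adjusted p = 0.0492). Within fibroblasts the alveolar sub-cluster had 65.1, 68.2 and 155.3 CPM in the lungs and 31.2 in metastasis replicate 5.

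*Ptgis* encodes prostacyclin synthase (chr2:167191805-167240604). Fibroblasts had 283.4 ± 246.5 CPM (SD, n = 8) and endothelial cells 31.3 ± 22.2 (SD, n = 12), and no other type exceeded 7.3. The fibroblast libraries stood at 743.4 and 500.3 CPM in the metastasis TME, 20.5, 162.0 and 54.2 in primary tumor and 331.3, 332.5 and 123.2 in lung. Metastasis lay above all others, and lung and primary tumor overlapped. The log2 difference of metastasis against primary tumor was 2.97 ± 0.77 (SE; edgeR adjusted p = 0.126) and passed without the sub-clusters led by other cell types, at 2.91 (edgeR adjusted p = 0.0253), where 4.22% of genes were called. That of primary tumor against lung was -1.66 ± 0.70 (SE; edgeR adjusted p = 0.159) and passed there too, at -2.02 (edgeR adjusted p = 0.0332), where 17.4% were called.

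The alveolar sub-cluster had the highest *Ptgis* in lung, at 390.5, 573.2 and 752.4 CPM, and 910.1 in metastasis replicate 5. The mesothelial sub-cluster had 986.3 and 607.3 in the metastasis TME and 290.4 in lung replicate 6. High *Ptgis* in the metastasis TME was thus found in both.

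**Figure D3:**
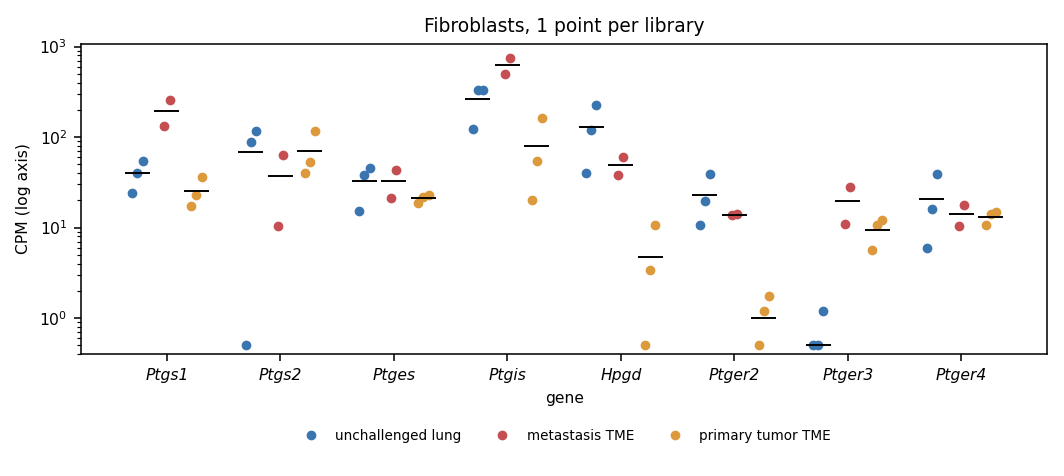
Levels of 8 of the genes in fibroblasts, in CPM on a log axis, by group; each point is 1 library, the black bar is the group mean, and values under 0.5 are drawn at 0.5. Both metastasis libraries lie above the rest for *Ptgs1* and *Ptgis*, while *Hpgd* and *Ptger2* are lowest in the 3 primary tumor libraries.

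Mean endothelial *Ptgis* was lower in the primary tumor than in either lung tissue. Endothelial cells had 20.0, 2.5, 4.3 and 10.6 CPM in the primary tumor TME, 10.5, 38.1, 49.2 and 70.4 in the metastasis TME and 49.9, 24.3, 44.1 and 51.9 in lung. Lung and primary tumor did not overlap. Metastasis and primary tumor did, since metastasis replicates 1 to 3, at 10.5, lay below the primary tumor values of 20.0 and 10.6. *Ptgis* fell by 2.29 ± 0.50 log2 units in primary tumor against lung (SE; edgeR adjusted p = 0.00309) and rose by 2.50 ± 0.52 in metastasis against primary tumor (SE; edgeR adjusted p = 0.00543). These comparisons called 28% (2708) and 11.8% (1145) of 9681 genes, and 3 of the 6 members tested passed in either, *Ptgis*, *Hpgd* and *Ptgds*, of which *Ptgds* is not read as host expression. In the venous cluster alone the levels were 220.4, 111.3, 149.4 and 184.1 CPM in lung, 123.3, 53.7 and 101.3 in metastasis and 0, 2.5, 4.3 and 10.6 in primary tumor, and the log2 differences were -4.71 ± 0.43 (SE; edgeR adjusted p = 1.12e-06) and 3.78 ± 0.47 (SE; edgeR adjusted p = 0.000175). The lower *Ptgis* of primary tumor endothelium was therefore also seen within the venous cluster. Its marker genes led clusters of different tissues at resolution 1.0.

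*Hpgd* encodes 15-hydroxyprostaglandin dehydrogenase, which inactivates prostaglandins (chr8:56294585-56321043). Endothelial cells had 1866 ± 1683 CPM (SD, n = 12), followed by monocytes at 342.7 ± 137.0 (SD, n = 10), alveolar macrophages at 294.0 ± 281.2 (SD, n = 5) and C1q macrophages at 188.2 ± 139.9 (SD, n = 10). Each of these differed from the next by less than the larger SD. The alveolar macrophage level depended on the clustering and was 13.6 when clusters with tied names were left unnamed.

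Primary tumor endothelium nearly lacked *Hpgd*. Lung endothelium had 2793.2, 3881.3, 2376.7 and 2437.8 CPM and that of the metastasis TME 2149.9, 5454.1, 1505.5 and 1244.4. The primary tumor TME had 547.3, 1.3, 2.8 and 0.8 CPM. The first of these is replicates 1 to 3, where 129 of 137 *Hpgd* UMIs came from 9 capillary and aerocyte cells. *Hpgd* fell by 4.52 ± 1.35 log2 units in primary tumor against lung (SE; edgeR adjusted p = 0.0209) and rose by 4.40 ± 1.34 in metastasis against primary tumor (SE; edgeR adjusted p = 0.0459). Without primary tumor replicates 1 to 3 these reached -10.78 and 10.66. The second call was lost when any 1 of 6 other libraries was left out, metastasis replicate 6 among them, with adjusted p up to 0.108, and the first when primary tumor replicate 5 was (edgeR adjusted p = 0.0521).

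Within the venous cluster *Hpgd* was again lowest in primary tumor. Lung had 1942.6, 4070.5, 1878.1 and 2368.7 CPM, metastasis 3317.7, 497.5 and 371.3, and primary tumor 36.8, 1.3, 2.8 and 0.8. Lung and metastasis overlapped, and both lay above primary tumor. There *Hpgd* fell by 8.96 ± 0.98 log2 units in primary tumor against lung (SE; edgeR adjusted p = 6.83e-06) and rose by 8.11 ± 0.98 in metastasis against primary tumor (SE; edgeR adjusted p = 0.000145), where 3.47% of genes were called. The log2 difference of metastasis from lung was -0.86 ± 0.69 (SE; edgeR adjusted p = 0.482). Capillary cells had 3043.6 to 4248.9 CPM in lung and 2442.7 to 6011.8 in metastasis, with a log2 difference of 0.10 ± 0.34 (SE; edgeR adjusted p = 0.949), where 0.353% of genes were called. Aerocytes had 1362 to 2020 CPM.

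**Figure D4:**
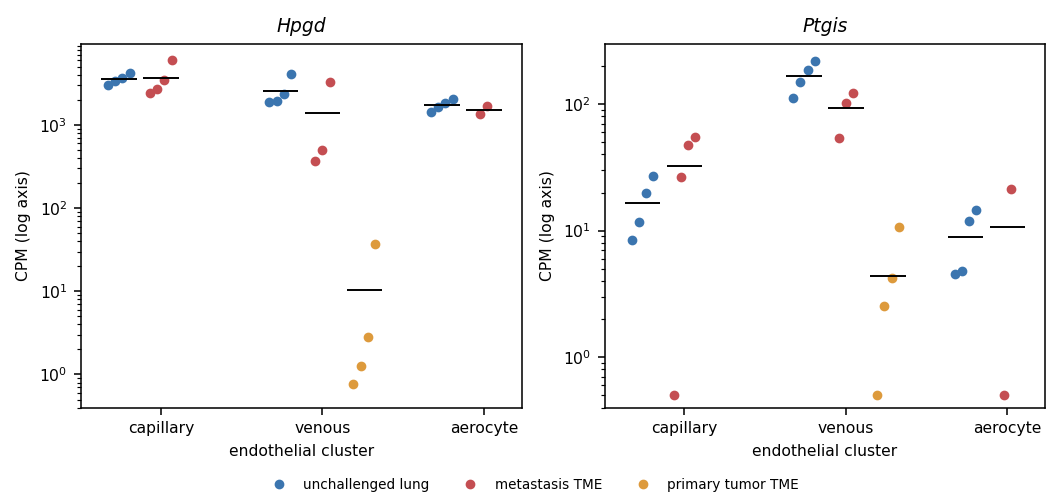
Levels of *Hpgd* and *Ptgis* in the capillary, venous and aerocyte endothelial clusters, in CPM on a log axis, by group; each point is 1 library with at least 20 cells of the cluster, the black bar is the group mean, and values under 0.5 are drawn at 0.5. Venous cells of the 4 primary tumor libraries reach 36.8 for *Hpgd* and 10.6 for *Ptgis*, below all venous points of lung and metastasis.

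*Hpgd* also differed in leukocytes and fibroblasts. C1q macrophages had 361.3, 385.4, 304.9 and 313.3 CPM in lung, 173.9, 133.6, 77.7 and 53.4 in metastasis and 33.9 and 44.2 in primary tumor, with no overlap. It fell by 1.59 ± 0.33 log2 units in metastasis against lung (SE; edgeR adjusted p = 0.00701) and by 3.09 ± 0.43 in primary tumor against lung (SE; edgeR adjusted p = 0.000584), in comparisons that called 7.82% and 8.54% of 6922 genes. Metastasis against primary tumor had a log2 difference of 1.50 ± 0.41 (SE; edgeR adjusted p = 0.276), in a comparison that called 0 genes with edgeR, against 342 at an unadjusted p under 0.05 and 18 by DESeq2. Both calls were kept in the fits without 1 library, where a lone primary tumor library is assumed to vary like the other groups.

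Neutrophils had 53.6, 44.1, 69.8 and 89.8 CPM of *Hpgd* in lung, 33.0, 66.0 and 20.2 in metastasis and 0 and 8.4 in primary tumor, on 5 UMIs. It fell by 3.08 ± 0.64 log2 units in primary tumor against lung (SE; edgeR adjusted p = 0.0137), where 3.94% of genes were called. The call was lost with the replicate block (edgeR adjusted p = 0.105) and without lung replicate 5 or 6 or primary tumor replicate 4, with adjusted p up to 0.211. Fibroblasts had 120.5, 39.7 and 228.0 CPM in lung, 60.9 and 38.5 in metastasis and 0, 10.8 and 3.4 in primary tumor. It fell by 4.94 ± 0.90 log2 units in primary tumor against lung (SE; edgeR adjusted p = 0.0103), in a comparison that called 12.3% of genes, and 4 of the 9 members passed there, *Ptgds* among them. The call was lost without primary tumor replicate 6 (edgeR adjusted p = 0.0629). Without the sub-clusters led by other cell types the difference was smaller, at -3.16 (edgeR adjusted p = 0.0222), and that of metastasis against primary tumor passed, at 3.68 ± 0.84 (SE; edgeR adjusted p = 0.0308).

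*Hpgd* UMIs were also counted in cell types not known for the enzyme. The level in lung T cells was 25.6 to 132.1 CPM and in lung NK cells 26.3 to 185.6, which covers the lung neutrophil values and 2 of the 3 lung fibroblast values and lies below the lung C1q macrophage values. The 11 endothelial markers summed to 120.5 to 431.4 CPM in neutrophils of lung, 84.4 to 171.7 in those of metastasis and 53.1 to 106.3 in those of primary tumor. In C1q macrophages they summed to 191.7 to 937.9 in lung, 108.5 to 279.9 in metastasis and 142.3 to 149.4 in primary tumor. In fibroblasts the sums were 395.0 to 1159 in lung, 126.0 to 300.6 in metastasis and 170.7 to 578.2 in primary tumor. In each type all 11 were detected in at least 1 lung library. Like *Hpgd*, they reached their highest values in lung, but in fibroblasts they were not higher in metastasis than in primary tumor, where *Hpgd* was lower. In C1q macrophages the 8 dendritic cell markers summed to 371.9 to 1411 CPM in lung, 66.8 to 194.1 in metastasis and 122.1 to 149.2 in primary tumor, without overlap of lung and the tumor sites, and all 8 were detected in every lung library. The part of these markers in *Hpgd* was not tested. Monocyte markers are not set beside *Hpgd* here, although only endothelial cells had a higher mean *Hpgd* level than monocytes. Monocytes had 246.2 to 602.0 CPM of *Hpgd* in lung, 243.1 to 403.6 in metastasis and 141.3 and 200.6 in primary tumor, and were not fitted.

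*Ptger2*, *Ptger3* and *Ptger4* encode the prostaglandin E2 receptors EP2, EP3 and EP4. EP2 and EP4 raise cyclic AMP, and EP3 mainly lowers it. *Ptger2* (chr14:44988195-45003820) was 21.6 ± 7.0 CPM in alveolar macrophages (SD, n = 5), 14.5 ± 13 in neutrophils (SD, n = 9) and 12.6 ± 12.9 in fibroblasts (SD, n = 8), which did not differ beyond their spread. In fibroblasts it was 39.2, 19.8 and 10.6 CPM in lung, 13.8 and 14.0 in metastasis and 1.8, 0 and 1.2 in primary tumor. Primary tumor lay below both others. It fell by 4.06 ± 0.72 log2 units against lung (SE; edgeR adjusted p = 0.0092), and the pooled UMIs, 77 in lung and 8 in primary tumor, gave a ratio of 12.1 with a counting interval of 5.82 to 28.9. Metastasis against primary tumor had a log2 difference of 3.53 ± 0.78 (SE; edgeR adjusted p = 0.0712), which passed without the sub-clusters led by other cell types (edgeR adjusted p = 0.0269). Without primary tumor replicate 6 the call against lung was lost (edgeR adjusted p = 0.0541). The alveolar sub-cluster held the highest levels, 38.0, 40.9 and 59.7 CPM in lung and 41.6 in metastasis replicate 5.

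*Ptger3* (chr3:157566892-157645888) was the least abundant member and was found mainly in fibroblasts, at 8.6 ± 9.3 CPM (SD, n = 8). C1q macrophages had 1.6, and no other type above 1.2. Fibroblasts had 11.1 and 28.0 CPM in metastasis, 10.7, 12.1 and 5.6 in primary tumor and 0, 0 and 1.2 in lung. Both tumor sites lay above lung. It rose by 3.44 ± 0.85 log2 units in primary tumor against lung (SE; edgeR adjusted p = 0.0291), on 49 and 5 pooled UMIs, a ratio of 7.83 with a counting interval of 3.14 to 25.2. The call was lost without primary tumor replicate 4, 5 or 6 or lung replicate 5 (edgeR adjusted p up to 0.0809), and without the sub-clusters led by other types (edgeR adjusted p = 0.0899). Against lung the metastasis log2 difference was 4.35 ± 0.91 (SE; edgeR adjusted p = 0.0607). The mesothelial sub-cluster of the metastasis TME had 16.1 and 38.9 CPM and that of lung replicate 6 had 0.

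*Ptger4* (chr15:5206661-5244187) was highest in leukocytes other than neutrophils, with 71.4 ± 10.1 CPM in T cells (SD, n = 5), 67.0 ± 19.2 in NK cells (SD, n = 5), 62.3 ± 43.3 in monocytes (SD, n = 10), 38.5 ± 19.2 in B cells, 34.6 ± 11.9 in C1q macrophages (SD, n = 10) and 33.4 ± 14.1 in alveolar macrophages (SD, n = 5). Neutrophils had 14.9, beside 16.2 in fibroblasts and 15.6 in AT-2 cells. The first 3 did not differ beyond their spread. T cells had 89.3 and 68.0 CPM in metastasis and 68.9, 66.9 and 64.0 in lung. NK cells had 74.9 and 47.9 in metastasis and 46.8, 91.4 and 73.8 in lung, with overlap in both types. Monocytes had 99.1, 150.7, 33.1 and 39.4 CPM in metastasis, 43.4, 54.4, 69.9 and 101.2 in lung and 11.4 and 20.2 in primary tumor, which lay below all others and was not tested. When the members were kept among the variable genes, a nonclassical monocyte cluster held 154 metastasis, 45 primary tumor and 1826 lung cells. A classical one held 20, 91 and 790. Together they held fewer cells than the 266, 213 and 4507 monocytes whose levels are given here. The classical cluster was thus the larger one in primary tumor and the smaller one in the other tissues, and its part in the *Ptger4* and *Hpgd* levels of monocytes was not tested. In endothelial cells the order was the opposite, with 24.0, 17.8, 21.3 and 16.7 CPM in primary tumor, 5.3, 7.6, 0 and 8.1 in metastasis and 0.3, 0.9, 11.1 and 12.8 in lung. Primary tumor lay above all others, but the log2 difference of metastasis against it was -2.37 ± 1.10 (SE; edgeR adjusted p = 0.209). In the venous cluster alone *Ptger4* was 27.6, 17.8, 21.3 and 16.7 CPM in primary tumor and 0, 1.9, 38.2 and 21.2 in lung, which overlapped, with a log2 difference of 0.12 ± 0.74 (SE; edgeR adjusted p = 0.938).

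*Ptgds* encodes lipocalin-type prostaglandin D2 synthase (chr2:25466709-25470046), which is also expressed by cells of the melanocyte lineage. MM cells had 1703 ± 805 CPM in the sorted MM libraries (SD, n = 4). The metastasis MM libraries had 2553.5 and 2150.4 CPM and the primary tumor MM libraries 1351.4 and 756.8, with no overlap. The value of 2150.4 is of metastasis MM replicate 4, where 284 of 638 barcodes were MM cells, beside 86 B cells and 63 neutrophils. The other MM libraries held 6203 to 30345 MM cells. The log2 difference was 1.08 ± 0.48 (SE; edgeR adjusted p = 1.00) in a comparison that called 0.00699% of genes, 1 of 14305. That gene is *Ank3*, which encodes ankyrin-G and is named here after its values were seen. In the libraries of mouse 17 the levels were 2553.5 in metastasis and 756.8 in primary tumor. Over both libraries of a site pooled, 91.3% of the metastasis MM cells lay in one cluster and 79.9% of the primary tumor MM cells in another. Of these 36548 primary tumor MM cells 30345 were from mouse 13, whose library had a median of 1654 UMIs per cell. The shares therefore do not describe mouse 17.

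In host types *Ptgds* moved with MM markers. It was 0 to 2.5 CPM over all named types of the 4 lungs and 199.7 to 1003.6 over 8 types of metastasis replicate 5. It was 209.3 to 414.3 over those of metastasis replicate 6 and 8.83 to 234.0 over those of the other tumor libraries. MM cells and the unnamed cluster led by *Col2a1* and *Wnt4* are left out of these ranges. That cluster had 1261 and 1177 CPM in metastasis replicates 5 and 6. In primary tumor TME replicates 4, 5 and 6 it had 660.3, 198.3 and 497.9. *Ptgds* was called against lung in all 4 types fitted, in both tumor sites. The call was lost in metastasis fibroblasts without metastasis replicate 5 or 6 or lung replicate 4 (edgeR adjusted p up to 0.141). It was lost in primary tumor neutrophils without primary tumor replicate 4 or lung replicate 5 or 6 (edgeR adjusted p up to 0.128), and in primary tumor C1q macrophages without primary tumor replicates 1 to 3 or lung replicate 6 (edgeR adjusted p up to 0.0957). In endothelial cells *Ptgds* also passed for metastasis against primary tumor, a call lost without metastasis replicate 5 or primary tumor replicate 4 or 5 (edgeR adjusted p up to 0.0714). In fibroblasts without the sub-clusters led by other cell types that comparison passed as well, at 2.77 (edgeR adjusted p = 0.0193). Lung C1q macrophages and neutrophils had no UMI, so that in the metastasis TME *Ptgds* was at least 62.8-fold and at least 552-fold higher, taking 3 UMIs over the group as the floor. The 8 MM markers other than *Cd63*, which host cells also express, summed to 213.8 to 8938.7 CPM in the named host types of the metastasis TME. They summed to 217.0 to 4858.2 in those of primary tumor and 0 to 11.1 in those of lung. In the unnamed cluster of the tumor-site TME libraries with at least 20 such cells they summed to 11893 to 21527. For 100 UMIs of these markers the named host types of metastasis replicates 1 to 3, 4, 5 and 6 had 13.8, 10.3, 9.30 and 23.2 *Ptgds* UMIs. Those of a primary tumor library had 3.61 to 8.77. In MM cells themselves there were 10.5 and 9.91 in the metastasis MM libraries and 7.55 and 3.95 in the primary tumor MM libraries. MM cells of the TME libraries had 10.9 in metastasis replicate 5 and 0.771 in primary tumor replicate 4, on 20 cells. Host types of metastasis replicate 6, at 20.7 to 27.8 each, lay above all these MM cell values, and the reason was not tested. The level in host types is not read here as expression by them.

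**Figure D5:**
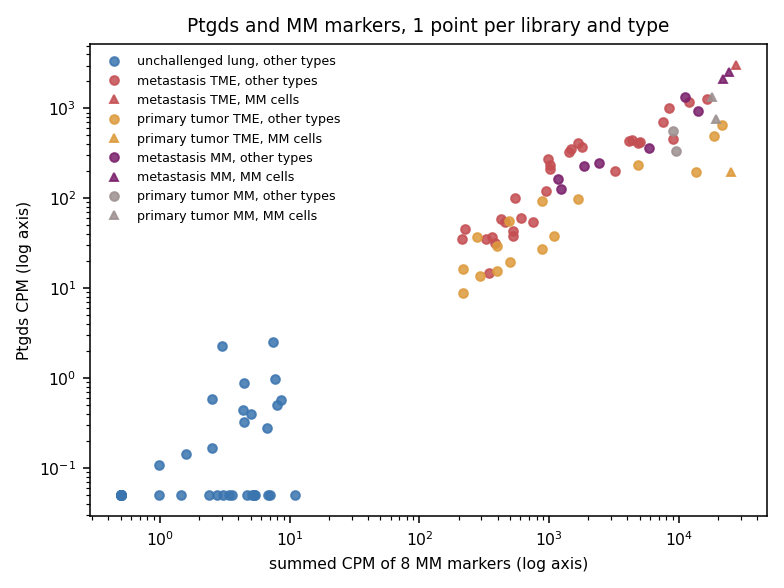
*Ptgds* level (vertical, CPM, log axis) against the summed level of 8 MM markers (horizontal, CPM, log axis); each point is 1 cell type in 1 library, triangles are MM cells and circles other types, values under 0.5 or under 0.05 on the horizontal or vertical axis are drawn there. Lung types lie at or below 11.1 on the horizontal and 2.5 on the vertical axis, and types of tumor libraries lie higher on both. The circles include the unnamed *Col2a1* and *Wnt4* cluster. The 20 MM cells of primary tumor TME replicate 4 lie below the other MM points, at 25180 on the horizontal and 194.3 on the vertical axis.

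The other members were near absent from MM cells. Among 149012189 UMIs of 48055 sorted MM cells there were 13 for *Ptgs1*, 2 for *Ptgs2*, 6 for *Ptges*, 5 for *Ptgis*, 72 for *Hpgd*, 2 for *Ptger2*, 0 for *Ptger3* and 19 for *Ptger4*. A count of 0 allows up to 0.0201 CPM, for counting error only. Only *Ptgds* of the 9 passed the filter on low counts in MM cells.

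A list of 23 further symbols of the prostaglandin pathway (phospholipases, other synthases, transporters and receptors) named 22 genes of the count table, since *Fam213b* is an older name of *Prxl2b*. In fibroblasts 15 were tested, and none passed for metastasis against lung or primary tumor, where 0.863% and 1.1% of all genes were called. *Ptgfr*, the prostaglandin F2 alpha receptor gene, fell by 3.31 ± 0.60 log2 units in primary tumor against lung (SE; edgeR adjusted p = 0.0103), a call lost without primary tumor replicate 6 (edgeR adjusted p = 0.0582). In endothelial cells 11 were tested, and none passed for metastasis against lung, where 3.38% of all genes were called. In the other 2 comparisons, with 11.8% and 28% of all genes called, 2 of the 11 passed. *Slco2a1*, the prostaglandin uptake transporter gene that acts ahead of *Hpgd*, had 959.5 ± 537.9 CPM there (SD, n = 12). It rose by 1.26 ± 0.37 log2 units in metastasis against primary tumor (SE; edgeR adjusted p = 0.0371) and fell by 1.13 ± 0.37 in primary tumor against lung (SE; edgeR adjusted p = 0.0313). The first call was lost without metastasis replicates 1 to 3 or 4 or primary tumor replicates 1 to 3, 5 or 6 (edgeR adjusted p up to 0.136), and the second without primary tumor replicates 1 to 3, 5 or 6 or lung replicate 4, 5 or 6 (edgeR adjusted p up to 0.0921). In the venous cluster alone the differences were 0.43 and -0.79 and no longer passed (edgeR adjusted p = 0.814 and 0.187). *Abcc4*, a prostaglandin efflux pump gene, went the other way, lower by 2.41 ± 0.41 in metastasis against primary tumor (SE; edgeR adjusted p = 0.00174) and higher by 3.15 ± 0.38 in primary tumor against lung (SE; edgeR adjusted p = 3.86e-05), and it passed in the venous cluster as well.

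In C1q macrophages 10 of these genes were tested, of which 1 passed for metastasis against lung and 3 for primary tumor against lung, beside 7.82% and 8.54% of all genes. *Pla2g4a*, the cytosolic phospholipase A2 gene, rose by 1.09 ± 0.31 log2 units in metastasis against lung (SE; edgeR adjusted p = 0.0385) and by 1.06 ± 0.30 in primary tumor against lung (SE; edgeR adjusted p = 0.04). With the replicate block its adjusted p was 0.108 and 0.173. The first call was lost without metastasis replicates 1 to 3 or 6 or the lung of mouse 5 or replicate 4 or 5 (edgeR adjusted p up to 0.132), and the second without either primary tumor library or any of these 3 lungs (edgeR adjusted p up to 0.333). *Prxl2b*, a prostaglandin F synthase gene, rose by 2.44 ± 0.43 in primary tumor against lung (SE; edgeR adjusted p = 0.00238), and *Mgll*, the monoacylglycerol lipase gene, fell by 3.17 ± 0.67 (SE; edgeR adjusted p = 0.0073), which neither the block (edgeR adjusted p = 0.293) nor the fits without either primary tumor library retained (edgeR adjusted p up to 0.218). *Hpgds*, the hematopoietic prostaglandin D synthase gene, had 127.3 ± 32.9 CPM in these cells and *Tbxas1*, the thromboxane synthase gene, 110.3 ± 39.9 (SD, n = 10 each). In neutrophils 4 were tested and in MM cells 12, and none passed, beside at most 7.53% and 0.00699% of all genes. Of 10 leukotriene genes, the sister pathway from arachidonic acid, 2 to 6 were tested in a cell type. *Ltc4s* passed, rising by 3.33 ± 0.59 log2 units in C1q macrophages of metastasis against lung (SE; edgeR adjusted p = 0.00238), 1 of 6 tested where 7.82% of all genes were called, and no other comparison called one.

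The 3 tissue comparisons of a cell type share libraries, so their differences are not independent of each other. The median log2 difference of the members tested can be set beside that of all genes as a description. For metastasis against primary tumor it was 1.86 against 0.02 in fibroblasts (9 members, 8 positive) and 1.36 against 0.06 in endothelial cells (6 members, 5 positive), with *Ptgds* among them. For primary tumor against lung it was -0.67 against -0.04 in fibroblasts and -0.58 against -0.03 in endothelial cells. For metastasis against lung it was 0.24 against -0.031 and 0.020 against 0.0091. In C1q macrophages (5 members) it was 0.66 against -0.0024 for metastasis against lung, 0.72 against 0.02 for metastasis against primary tumor and -0.064 against -0.044 for primary tumor against lung. In neutrophils (3 members) these were -1.11 against -0.029, 1.97 against 0.06 and 0.25 against -0.019.

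Across the 102 pairs of a library and a cell type, genes with the pattern most like a member were named by Pearson's r of log2(CPM + 1). Cell types of a library share its depth, so these values are descriptions. *Hpgd* was most like *Cd36* (0.84) and *Ace* (0.83), genes known in lung capillaries. *Ptgis* was most like *Slit3* (0.82) and *Mgp* (0.80), and *Ptgs2* most like *Sgms2* (0.81) and *Slc7a11* (0.80), with the neutrophil gene *S100a9* next (0.79). *Ptgds* followed the pigment genes *Dct* (0.97) and *Tyrp1* (0.96). *Ptgs1* had no closer neighbor than *Anxa3* and *Stap2* (0.72), *Ptges* than *Lgi2* (0.75) and *Ptger2* than *Abcd2* (0.75). *Ptger4* was most like AI662270 (0.80). Among the members themselves, *Ptges* and *Ptgis* were the most alike (0.61).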

How the data were processed

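Single cells were captured with the 10x Genomics 3 prime kit, and the authors made the counts with Cell Ranger 6.1.1 on GRCm38 and filtered cells in Seurat 3.2.2. The deposited values used are raw UMI counts per gene and cell. A deposited table of log-normalized values was not used. Of 110283 barcodes under 24 library names, 5 names repeated another with the same barcodes and counts; 1 of them, named metastasis MM of mouse 21, repeated metastasis TME replicate 6, and the other 4 repeated a library of their own group under another mouse (21 for 17, 22 for 18). The first name of each was kept and the 9924 repeats were removed, which left 100359 cells, in 16 libraries once replicates 1 to 3 of a site were pooled. Groups are those of the labels. Libraries whose name has another number than their label are called by their mouse.

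All cells were clustered with Seurat 5.3.0 in R 4.3.3 at resolution 0.5, from 2000 variable genes other than the 9 members, 20 neighbors and 17 principal components. Fibroblasts were clustered a second time on 12 components. Clusters were named by the largest share of a marker list raised by more than 1 log2 unit and found in at least 10% of cells, with at least 3 markers. A name was dropped where another list held more of the 10 leading genes. Ties were settled by the median fold, a rule added after the clusters were seen. The MM clusters of 30267 and 19951 cells had 3 and 9 of the 9 MM markers raised. Doublets were not removed, so mixed barcodes stay in the classes. No marker list was built for free RNA.

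UMIs were summed per library and type (at least 20 cells) and the sums went into edgeR 4.0.16, with its default expression filter, TMM factors and the quasi-likelihood test, in 1 fit for the 3 tissues. Calls needed a two-sided Benjamini-Hochberg adjusted p, taken over every gene that passed the filter, below 0.05. Fibroblast fits held 2 metastasis, 3 primary tumor and 3 lung libraries. Metastasis and primary tumor TME libraries share mice, by the names kept, in replicates 1 to 3 (mice 2 and 3), 5 and 6 but not 4, so these numbers pair in part. The MM libraries share mice with TME libraries, and 2 of them are from mouse 17. Lungs are from other mice, but libraries of the same number share the run given in their names in all 3 tissues. The names do not say what a run is. Where leaving out a library leaves 1 in a group, that one is assumed to vary like the other groups. Correlations of same-numbered deviations were -0.125 to 0.167 for metastasis and primary tumor. p-values measure the spread between libraries. Where a group has few UMIs, a ratio of pooled UMIs has an exact 95% counting interval, and a floor of 3 counts stands for 0; both cover counting error only. The pipeline was tested on simulated data with known changes. Alternatives were DESeq2 1.42.0, upper quartile scaling, no filter, other cell minimums and resolution 1.0. Others were 1 run alone, a replicate block (the run for MM cells) and leaving out libraries. Further alternatives, on endothelial clusters, fibroblast sub-clusters and ties, were added after seeing the data.

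Named genes are the 9 members, pathway and leukotriene genes that passed or had high levels, and for each member with at least 200 UMIs its most correlated genes with a mean of at least 5 CPM. The members and lists were chosen with earlier results of these data known. Gene positions are from GENCODE vM21, promoters from RefSeq. Python 3.11.15 with pandas 2.3.3, scipy 1.17.1 and matplotlib 3.10.9 was used. The study's stainings, human data and culture experiments were not analysed here.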

Additional observations from a re-analysis of the deposited data

Results flagged for a closer look

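Values of 1 library standing apart from its group were found in 6 of 48 groups of 4 libraries or more; chance alone gives about 1 in 20. The groups compared had at least 20 UMIs and a mean of at least 5 CPM. *Hpgd* in primary tumor endothelial cells was 547.3 CPM in replicates 1 to 3 and at most 2.8 in the other 3 libraries. *Ptger2* in lung alveolar macrophages was 33.5 in replicate 4 and at most 18.1 in the others. *Ptgs2* in unchallenged lung replicate 6 was 92.2 in B cells, 40.2 in C1q macrophages and 69.1 in monocytes, where the next lung library had 9.0, 3.7 and 14.2. *Ptgs2* in metastasis endothelial cells was 46.0 in replicate 6 and at most 1.4 in the others.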

How the results depend on the processing

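Of 723 refits of 49 folds of members and pathway genes, 617 kept their direction and side of the threshold, 69 lost the call, 27 gained one and 10 turned direction. The turned ones were *Ptgs1* in endothelial cells and *Ptgds* in neutrophils. *Ptgs1* in metastasis against lung was -0.22 with the replicate block, -1.20 in run 3 alone and -1.43 in the venous cluster, and -0.69 to 0.45 when 1 library was left out (-0.012 without the lung of mouse 5). Against primary tumor it was -0.78 in run 3 alone, -0.034 in the venous cluster and -0.61 to 0.52 with 1 library left out. For primary tumor against lung, leaving out 1 library gave -0.23 to 0.11 (-0.23 without the lung of mouse 5, otherwise -0.15 or more). *Ptgds* in neutrophils of metastasis against primary tumor was -0.81 with the replicate block. Beyond the calls named with their values above, the block also ended the call of endothelial *Slco2a1* in metastasis against primary tumor (edgeR adjusted p = 0.0533) and changed no other called fold.
The leading cell type of all 9 members held in 18 of 22 refits. *Ptger4* led in NK cells in run 3 alone and as a mean over cells, *Ptges* in fibroblasts without metastasis replicate 6 and *Ptgs1* in AT-2 cells without lung replicate 6, which gave 8 of 9 each. Of 594 levels recomputed, 593 moved by less than 1 SD, which is a wide margin where the SD is near the mean. *Hpgd* in alveolar macrophages, 294.0 ± 281.2 CPM, was 13.6 with tied clusters left unnamed.
Counts of called genes, in the order metastasis against lung, metastasis against primary tumor and primary tumor against lung, moved more, and the cause was not tested. They were 96, 122 and 1367 in fibroblasts, 327, 1145 and 2708 in endothelial cells, 541, 0 and 591 in C1q macrophages, 348, 2 and 182 in neutrophils, and 1 in MM cells. With DESeq2 the ones that moved by over 1.5 times became 540 and 321 in fibroblasts, 499 for endothelial metastasis against lung, 18 and 25 for metastasis against primary tumor in C1q macrophages and neutrophils, and 25 in MM cells. With no filter on low counts they were 717, 366 and 2492 in fibroblasts, 718 for endothelial metastasis against lung, 913, 224 and 1664 in C1q macrophages, 742, 74 and 539 in neutrophils and 82 in MM cells. With the replicate block they were 198 for fibroblast metastasis against primary tumor, 280, 6 and 171 in C1q macrophages, 6 for neutrophil metastasis against primary tumor and 118 in MM cells. With at least 10 cells they were 58 and 198 in fibroblasts and 4 for neutrophil metastasis against primary tumor, and with at least 50 cells 1 and 1182 for the latter 2 in C1q macrophages and 0 for neutrophil metastasis against primary tumor. At resolution 1.0 they were 553, 8 and 288 in neutrophils. In run 3 alone they were 49 and 905 for fibroblast metastasis and primary tumor against lung, and for metastasis against lung 2312 in endothelial cells, 301 in C1q macrophages and 552 in neutrophils. The venous cluster alone gave 725 and 286, and the capillary cluster alone 27. Without sub-clusters led by other types, fibroblasts had 575 and 432.
Leaving out 1 library gave 6 to 296, 2 to 13 and 400 to 1314 in fibroblasts, 113 to 832, 743 to 1528 and 2059 to 2739 in endothelial cells, 286 to 771, 0 to 3 and 98 to 526 in C1q macrophages, 78 to 547, 0 to 17 and 65 to 214 in neutrophils, and 0 to 49 in MM cells. Without the lung of mouse 5, 217 passed for endothelial metastasis against lung. In MM cells, 9 passed without the metastasis library of mouse 17, and 36 and 49 without the primary tumor library of mouse 13 or mouse 17.
The depth of a cell type limits rare members: *Ptger3* rested on 5 lung and 49 primary tumor UMIs in fibroblasts, and *Hpgd* on 5 in primary tumor neutrophils. Lung and primary tumor fibroblasts are mostly from 1 shallow library each.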
